A study of Mus musculus with 10 samples.

Results

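The genes described here are 10 members of the NF-kB pathway in mouse striatum. These comprise the subunit genes Nfkb1, Nfkb2, Rela and Relb, the regulator genes Nfkbia, Nfkbiz and Tnfaip3, and the target genes Birc3, Icam1 and Irf1. They were taken by name from a table of 21230 genes, in which all 10 were present. The table came from RNA sequencing of striatal punches from BACHD mice, a model of Huntington's disease on the FVB/N background that carries full-length mutant human HTT on a bacterial artificial chromosome in addition to the mouse Htt gene. Mice of 5 libraries received SPI-24 and mice of 5 libraries received the DMSO vehicle, which also held PEG400, in both cases from an osmotic pump under the skin for 8 weeks. SPI-24 is a small molecule that inhibits the contact of the elongation factor Spt5 with RNA polymerase II. The pump held it at 80 mM and was replaced after 28 days. The study reports that little SPI-24 remained in the brains of this arm, which it reads as declining stability in the pump. It detected no effect on Htt protein in this arm. Mice of both groups were heterozygous for the transgene, and all underwent pump surgery with buprenorphine and carprofen given around it. The study's list holds both sexes in each group of this arm but does not name the mice that were sequenced. The study describes its early-stage mice as 12 weeks old at the start, while its list of mice gives somewhat higher ages for this arm. No library from mice without the transgene was included, so every value below refers to punches of BACHD mice. The labels call the 5 libraries of each group biological replicates.

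NF-kB is a family of dimeric transcription factors that is held in the cytoplasm by IkB proteins until a signal from cytokine or Toll-like receptors activates the IkB kinase, which marks IkB for degradation. The freed dimers enter the nucleus, bind kB sites and induce inflammatory and survival genes, among them genes for their own inhibitors, so that the response is limited by feedback. In brain the pathway is best known in microglia, astrocytes and endothelial cells, and Spt5 is known to take part in the transcription of NF-kB target genes.

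No member differed between SPI-24 and DMSO striatum beyond the spread between libraries. The fold changes of 7 members lay above 0 on the log2 scale and those of 3 below, from -1.73 for Birc3 to 1.14 for Irf1, with a median of 0.28. This split rested on a few libraries, foremost DMSO replicate 3, the shallowest, without which 2 members lay above 0 and 8 below, with a median of -0.35. In the 7 libraries above 11 M reads 3 lay above and 7 below 0, and without SPI-24 replicate 4 or SPI-24 replicate 5 there were 5 on each side. All 15871 genes tested divided into 7966 above and 7905 below 0 (49.8%), with a median of 0.00. Fold changes and tests came from limma, fitted with a trend to log2(normalized count + 1) of every gene whose normalized count averaged 10 or more, and p-values were adjusted by Benjamini-Hochberg over all genes tested. At an adjusted p under 0.05 none of the 10 members and none of the 15871 genes was called (0%), and every member had an adjusted p of 0.999 in limma. At an unadjusted p under 0.05 limma listed 354 genes (2.23%), none of them a member. The highest library of one group overlapped the lowest of the other for all 10 members, while the groups did not overlap for 82 of the 15871 genes (0.517%). On reads recovered from the deposited values, edgeR called no gene and listed 367 at an unadjusted p under 0.05. DESeq2 called 3 genes, all lower in SPI-24 and none of them a member (0.0189%), and listed 405. These were A530016L24Rik, 1700024G13Rik and Erich2, named after their values were seen.

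**Figure D1:**
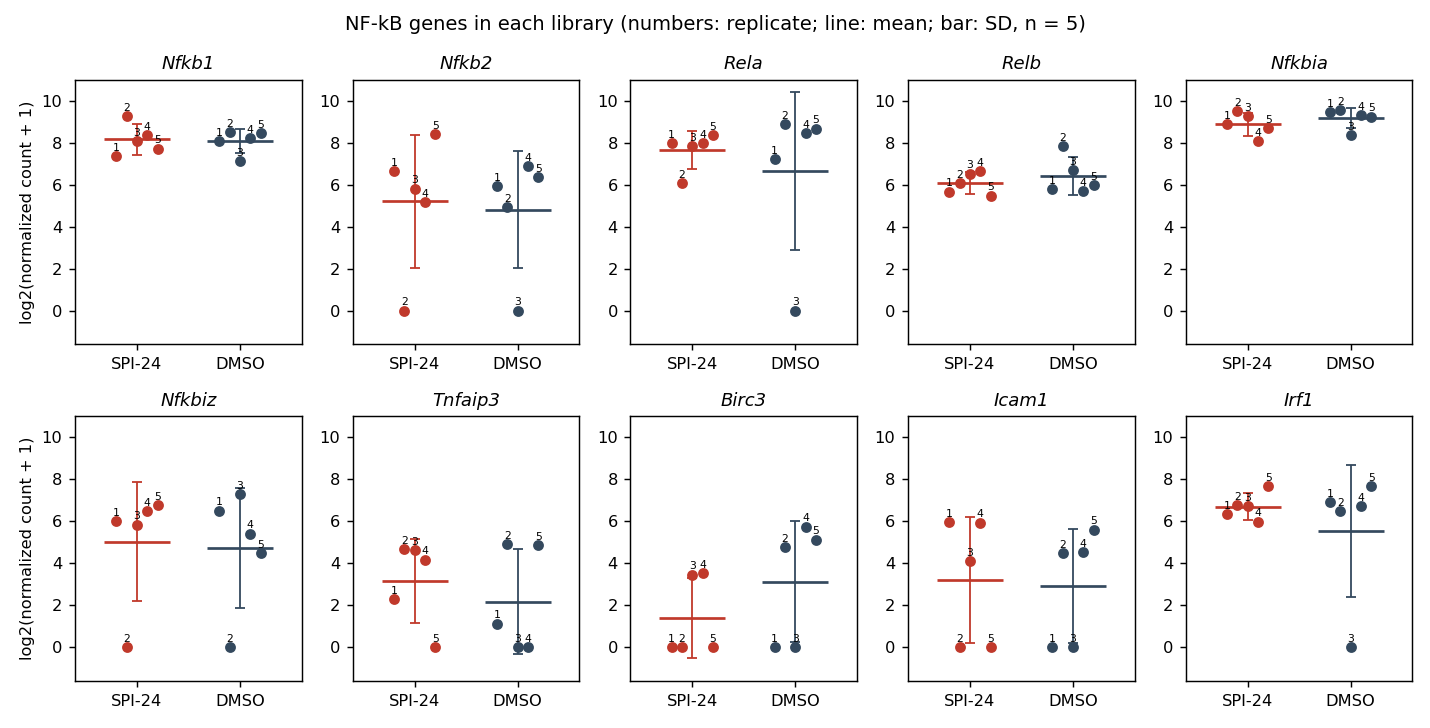
Level of each of the 10 NF-kB genes as log2(normalized count + 1) in every library, SPI-24 to the left of DMSO, with replicate numbers beside the points, the mean as a line and the SD as a bar (n = 5 each). The groups overlap for all 10 genes, and a value of 0 stands for a library without reads.

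Depth differed widely between libraries and bears on each value of these genes. A normalized count is the number of reads assigned to a gene divided by a size factor for the library. The SPI-24 libraries held 7.38 to 29.6 M reads assigned to genes (median 25.8) and the DMSO libraries 5.48 to 46.9 M (median 28.2). DMSO replicate 3 was the shallowest, followed by SPI-24 replicate 2 and SPI-24 replicate 5. Genes that averaged at least 200 normalized counts in the other libraries lacked reads altogether for 0.950% of such genes in SPI-24 replicate 2, for 0.644% in replicate 5 of that group and for 3.15% in DMSO replicate 3, against 0.0211 to 0.244% in the other 7 libraries. Medium spiny neurons are the projection cells that define striatum, and their markers summed to 3081 to 96775 normalized counts in SPI-24 libraries and to 3500 to 90040 in DMSO libraries. Markers of thalamic neurons summed to 6130 to 27210 in SPI-24 and to 1205 to 26229 in DMSO, so the cell make-up of the punches varied within both groups. In 6 of the 10 libraries, SPI-24 replicates 1, 3 and 4 and DMSO replicates 2, 3 and 5, the thalamic sum exceeded the medium spiny neuron sum, which goes against the label of striatum. With the medium spiny neuron level as a covariate in limma, 7 members lay above 0 and 3 below, and none was called. In bulk tissue, fewer cells of a type and less RNA per cell cannot be told apart.

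Of the 100 values that 10 genes have in 10 libraries, 18 were 0, 8 of them in SPI-24 and 10 in DMSO libraries. The 3 shallowest libraries held 13 of these 18. Nfkb1, Relb and Nfkbia alone had reads in every library. SPI-24 replicate 2 lacked reads of 4 members, SPI-24 replicate 5 of 3, DMSO replicate 3 of 6 and DMSO replicate 1 of 2. A count of 0 allows up to 3 reads, which equal 8.30 and 6.21 normalized counts for SPI-24 replicates 2 and 5, and 10.3 and 1.44 for DMSO replicates 3 and 4. Such a limit holds for counting error alone, as no molecular identifiers were used. Where Birc3, Icam1 and Tnfaip3 had no reads in the 3 shallowest libraries, the mean of the other 9 libraries would have given 4.17 to 12.4 reads. The Rela zero in DMSO replicate 3 stood against 81.4 reads at the mean of the other 9 libraries, and the Nfkbiz zero in DMSO replicate 2, a library of 28.2 M reads, against 107.

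**Figure D2:**
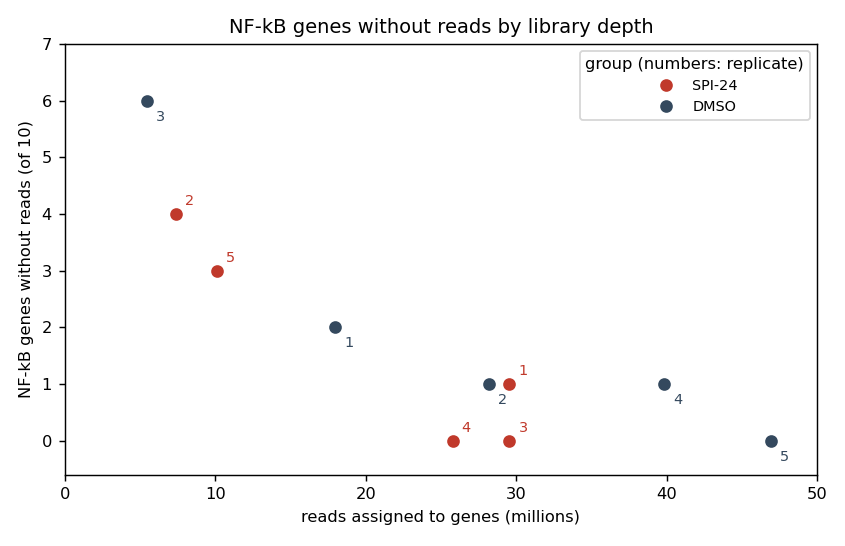
Number of the 10 NF-kB genes without reads (vertical axis) against the M reads assigned to genes (horizontal axis), 1 point per library, SPI-24 in red and DMSO in dark blue with replicate numbers. DMSO replicate 3 lacks 6 genes at 5.48 M reads and the 7 deeper libraries lack 0 to 2.

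Levels were set against each other per kb of exon, using all exons of a gene in GENCODE M21 merged, which can exceed the length of the main transcript. Nfkbia was the most abundant of the 10, at 342 normalized counts per kb averaged over the 10 libraries. Rela followed at 81.6, then Irf1 at 27.1, Nfkb1 at 24.8, Relb at 21.9, Nfkb2 at 17.7 and Nfkbiz at 12.6 normalized counts per kb. Icam1 at 5.28, Birc3 at 2.68 and Tnfaip3 at 1.77 normalized counts per kb were the lowest. Nfkbia exceeded Rela in 10 of 10 libraries and Rela exceeded Irf1 in 8. From Irf1 downward each gene exceeded the next in 3 to 7 of the 10 libraries, so the order of these neighbours did not hold beyond their spread.

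Because NF-kB genes are known to answer to NF-kB itself, the sequence before their start sites is shown for the members that hold a kB consensus match close to the start. RefSeq promoter windows of 300 bases on GRCm38.p6, with 250 bases before the start and 50 from it, were at hand for 7 members. Nfkb1, Relb and Nfkbiz are named only. Both strands were searched for the kB consensus GGGRNNYYCC, where R is A or G, Y is C or T and N is any base. Overlapping matches were counted. Stretches that differ from it in a single base, such as tggaaattcc in the Icam1 window, were not counted. A window without a match thus need not lack a kB site. Windows of Nfkb2, Nfkbia, Tnfaip3 and Irf1 held a match and those of Rela, Birc3 and Icam1 did not, while 9.55% of 27025 genes held a match in any window. The second windows of Tnfaip3 and Irf1, at later start sites, held none. In these 4 genes a match lay within the 60 bases before the first RefSeq start, as in 1.72% of all windows, a stretch that was chosen after the positions were seen. The matches are in capitals below, 5′ to 3′ on the strand of the gene, and the base after each line is the first of the transcript.
Nfkb2: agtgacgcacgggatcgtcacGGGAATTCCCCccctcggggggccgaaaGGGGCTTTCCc
Nfkbia: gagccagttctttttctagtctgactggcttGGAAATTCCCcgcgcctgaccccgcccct
Tnfaip3: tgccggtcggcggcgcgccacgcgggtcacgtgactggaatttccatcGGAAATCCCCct
Irf1: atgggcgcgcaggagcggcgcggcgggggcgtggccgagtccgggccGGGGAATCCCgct

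These stretches lie at chr19:46304677-46304736 on the plus strand for Nfkb2, chr12:55492648-55492707 on the minus strand for Nfkbia, chr10:19015411-19015470 on the minus strand for Tnfaip3 and chr11:53769954-53770013 on the plus strand for Irf1. GENCODE M21 places the Nfkb2 stretch inside an annotated exon of Nfkb2 and the Tnfaip3 stretch inside an intron of Tnfaip3, while those of Nfkbia and Irf1 lie outside the gene. Counted from the start, the matches begin at -39, -38 and -11 in Nfkb2, at -29 in Nfkbia, at -12 in Tnfaip3 and at -13 in Irf1. Those of Nfkbia and Tnfaip3 and the Nfkb2 match at -38 read as the consensus on the opposite strand. The Nfkb2 match at -39 and that of Irf1 do so on both strands. A match is a description of the letters and not a measured binding site. The log2 fold changes of the 4 genes with such a match were 0.39, -0.30, 0.98 and 1.14, and those of Rela, Birc3 and Icam1, without one, were 1.0, -1.73 and 0.28. Neither set stood on one side of 0.

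Among the subunits, Nfkb1 encodes a precursor that is processed to a DNA-binding subunit of the classical dimer. Nfkb1 (ENSMUSG00000028163, chr3:135584655-135691547, minus strand) had 163, 619.8, 268, 325 and 209 normalized counts in SPI-24 replicates 1 to 5. In DMSO replicates 1 to 5 it had 269.9, 359, 137, 299 and 347. SPI-24 replicate 2 was the highest library and DMSO replicate 3 the lowest, and the remaining values interleaved. The mean was 317 ± 180 in SPI-24 and 282 ± 89.0 in DMSO (SD, n = 5 each), with a log2 fold change of 0.08 (standard error 0.44, 95% interval -0.86 to 1.03).

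Rela encodes the subunit that carries the transactivation domain of the classical dimer and is found in most cell types. Rela (ENSMUSG00000024927, chr19:5637483-5648130, plus strand) had 254, 66.4, 228, 251 and 327 normalized counts in SPI-24 libraries. The DMSO libraries had 149, 477, 0, 348 and 406. Without the DMSO library that lacked reads, 3 of the remaining 4 DMSO values lay above every SPI-24 value. The SPI-24 mean of 225 ± 96.3 was below the DMSO mean of 276 ± 197, while the log2 fold change was positive, at 1.0 (standard error 1.38, 95% interval -1.94 to 3.94). Without DMSO replicate 3 it was -0.66, in the 7 libraries above 11 M reads -0.37, and from the reads -0.32 by edgeR and -0.30 by DESeq2. None of these passed, with adjusted p-values of 0.897 or more in the limma fits without those libraries. The sign of the Rela difference thus depended on 1 library and on the model. Over all 10 libraries the SD of Rela on the log2 scale was higher than that of 94.1% of 4407 genes of similar mean. On this scale the SD was 3.77 in DMSO, which held the library without Rela reads, and 0.90 in SPI-24.

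The other route, the alternative pathway, uses Nfkb2, whose precursor both inhibits NF-kB and yields a DNA-binding subunit, and Relb, its partner. Nfkb2 (ENSMUSG00000025225, chr19:46304320-46312385, plus strand) had 98.1, 0, 55.3, 34.8 and 337 normalized counts in SPI-24 libraries. Its DMSO values were 59.5, 29.6, 0, 117 and 80.3. SPI-24 replicate 5, at 10.1 M reads, was far above the other 9 libraries and rested on 163 reads. The means were 105 ± 135 in SPI-24 and 57.3 ± 45.2 in DMSO, with a log2 fold change of 0.39 (standard error 1.69). It was -0.41 without SPI-24 replicate 5 and -0.82 without DMSO replicate 3. The annotated gene overlaps Psd and AC114539.1 on the opposite strand, and no source used here gives the strand setting of the counting.

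Relb (ENSMUSG00000002983, chr7:19606217-19629438, minus strand) had reads in every library, with 49.7, 66.4, 91.2, 99.4 and 43.5 normalized counts in SPI-24 and 54.7, 229, 103, 50.5 and 62.9 in DMSO. DMSO replicate 2 was the highest, at over 2 times the next library. The means were 70.0 ± 24.7 in SPI-24 and 99.96 ± 75.2 in DMSO, and the log2 fold change was -0.33 (standard error 0.79). Without DMSO replicate 2 it was 0.03. Relb varied less over the libraries than most genes of its level, with an SD above that of 6.85% of 3007 genes of similar mean.

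Of the regulators, Nfkbia encodes IkB alpha, the main cytoplasmic inhibitor and a classical feedback target of NF-kB. Nfkbia (ENSMUSG00000021025, chr12:55489410-55492647, minus strand) had 474, 719, 612, 266 and 416 normalized counts in SPI-24 replicates 1 to 5. In DMSO replicates 1 to 5 it had 705, 745, 328, 639 and 604. DMSO replicate 3 was the lowest DMSO library, and 4 of 5 SPI-24 libraries lay below the DMSO median. The mean of 498 ± 175 in SPI-24 stood against 604 ± 164 in DMSO, with a log2 fold change of -0.30 (standard error 0.32). Its 95% interval of -0.99 to 0.38 was the only one of the 10 within a 2-fold change in either direction, as were the intervals of 37.9% of all genes tested. The lower limit lay close to 2-fold, and in 11 of 20 other limma fits, among them those without DMSO replicate 3 and without trend, it lay beyond it. The interval of Nfkb1 lay within 2-fold in 2 of these fits, both with other filters. In the 7 libraries above 11 M reads the log2 fold change was -0.65 with a 95% interval of -1.30 to -0.01 and an adjusted p of 0.836 in limma. The sign of the Nfkbia difference did not change when any 1 library was left out, with log2 fold changes of -0.51 to -0.10.

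Nfkbiz encodes a nuclear IkB protein that is induced by Toll-like receptor and interleukin signals and acts on a subset of NF-kB targets. Nfkbiz (ENSMUSG00000035356, chr16:55811375-55838899, minus strand) had 63.4, 0, 56.6, 89.5 and 109.7 normalized counts in SPI-24 libraries. Its DMSO values were 90.4, 0, 157, 41.8 and 21.4. Each group thus had 1 library without reads, and DMSO replicate 3, in which most members were low or absent, was the highest of all. Group means were 63.8 ± 41.5 in SPI-24 and 62.2 ± 62.8 in DMSO, with a log2 fold change of 0.28 (standard error 1.66). This was -0.90 without DMSO replicate 2 and 1.54 without SPI-24 replicate 2.

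Tnfaip3 encodes a ubiquitin-editing enzyme that shuts off signalling from the TNF receptor to the IkB kinase, and it is itself induced by NF-kB. Tnfaip3 (ENSMUSG00000019850, chr10:19000910-19015657, minus strand) was close to the lower limit of these libraries, with 3.92, 24.9, 23.9, 17.0 and 0 normalized counts in SPI-24 and 1.19, 28.9, 0, 0 and 28.3 in DMSO. These rested on at most 78 reads in any library. The 2 highest values were from DMSO libraries, and DMSO replicate 4, at 29.6 reads expected from the mean of the others, had none. Means were 13.9 ± 11.4 in SPI-24 and 11.7 ± 15.5 in DMSO, and the log2 fold change of 0.98 had a standard error of 1.55.

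Among the targets, Birc3 encodes a ubiquitin ligase of the inhibitor of apoptosis family that acts in TNF receptor signalling. Birc3 (ENSMUSG00000032000, chr9:7848699-7873186, minus strand) had 0, 0, 10.1, 10.7 and 0 normalized counts in SPI-24 libraries and 0, 26.3, 0, 52.9 and 34.2 in DMSO libraries. Reads were found in 2 of 5 SPI-24 and 3 of 5 DMSO libraries, and the 3 DMSO libraries with reads were the 3 highest of all 10. The mean was 4.14 ± 5.68 in SPI-24 and 22.7 ± 22.8 in DMSO. The log2 fold change of -1.73 was the lowest of the members, with a standard error of 1.59 and a 95% interval of -5.13 to 1.67. SPI-24 replicate 1, at 29.6 M reads, would have given 22.8 reads at the mean of the other 9 libraries and had none.

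Icam1 encodes an adhesion molecule that endothelial cells and activated glia display to leukocytes. Icam1 (ENSMUSG00000037405, chr9:21015985-21028817, plus strand) had 62.1, 0, 16.3, 60.4 and 0 normalized counts in SPI-24 libraries and 0, 21.7, 0, 22.1 and 47.6 in DMSO libraries. Each group held 2 libraries without reads, and SPI-24 replicates 1 and 4 were the highest. The means were 27.8 ± 31.3 in SPI-24 and 18.3 ± 19.7 in DMSO, with a log2 fold change of 0.28 (standard error 1.75). Leaving out single libraries gave -0.45 to 1.08. Gm47079 lies antisense to Icam1 and, as for Nfkb2, reads of both cannot be told apart if strand was not used in counting.

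Irf1 encodes a transcription factor that NF-kB and interferon gamma induce together. Irf1 (ENSMUSG00000018899, chr11:53770014-53778374, plus strand) had 80.4, 108, 104, 62.5 and 205 normalized counts in SPI-24 libraries and 119, 88.0, 0, 104 and 206 in DMSO libraries. The highest library of each group had nearly the same value, and DMSO replicate 3 had no reads where 35.0 were expected from the mean of the others. Means were 112 ± 55.1 in SPI-24 and 103 ± 73.7 in DMSO. The log2 fold change of 1.14, the highest of the members, had a standard error of 1.29 and became -0.25 without DMSO replicate 3 and -0.60 in the 7 libraries above 11 M reads. Gm17334 overlaps Irf1 on the opposite strand.

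The standard errors of the members were large for this data set, with a median of 1.46 on the log2 scale against 0.47 over all genes tested. A 2-fold difference was therefore within the 95% interval of every member except Nfkbia, and for Nfkbia too in other fits. An adjusted p that misses the threshold does not show that the levels were equal.

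**Figure D3:**
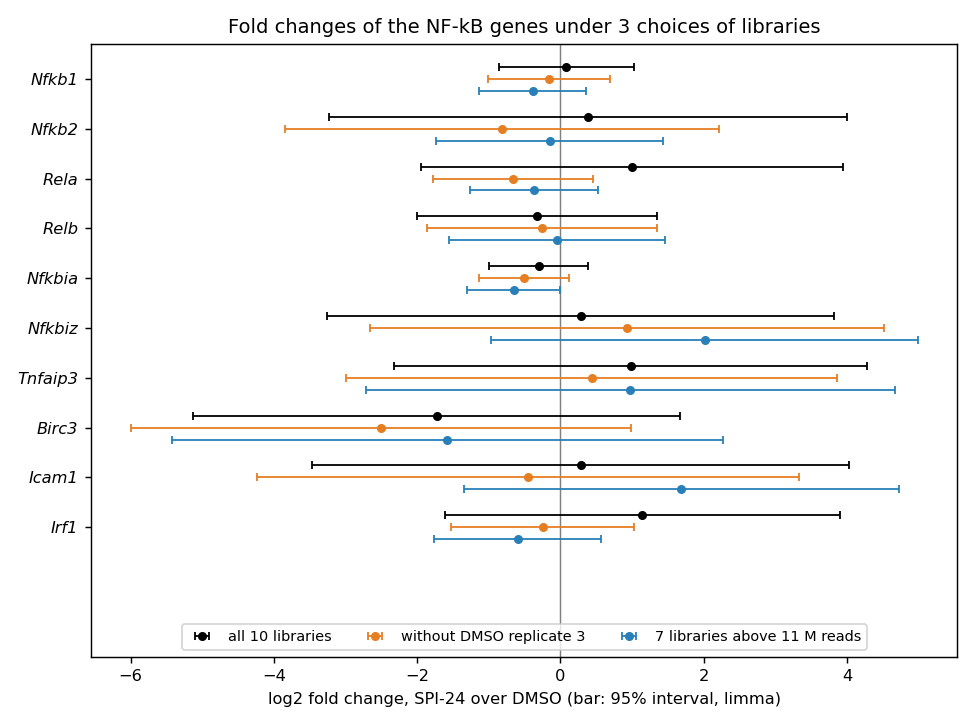
Log2 fold change of each NF-kB gene, SPI-24 over DMSO, with its 95% interval from limma, for all 10 libraries (black), without DMSO replicate 3 (orange) and for the 7 libraries above 11 M reads (blue). Rela, Irf1, Nfkb1 and Nfkb2 stand above 0 with all libraries and below 0 in both other fits, while Nfkbia, Birc3 and Relb stay below 0 in all 3.

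The remaining genes of the pathway were taken from lists of 81 genes, of which 73 were in the table and 65 had a mean of at least 10. Of these 65 genes 34 had a log2 fold change above 0 and 31 below, with a median of 0.02, and limma called none and listed 2 at an unadjusted p under 0.05, Bcl3 and Traf5. Tnf, Cxcl1, Cxcl2, Sele, Selp, Saa3, Ccl20 and Tnip3 had no row in the table. The chemokine genes Ccl2, Ccl3, Ccl4 and Cxcl10 and the cytokine gene Il6 averaged 3.13 to 4.54 normalized counts over the 10 libraries and were not tested. The genes named below were picked as the up to 3 of smallest limma p in each list.

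The last subunit gene, Rel, averaged 25.6 ± 34.9 normalized counts in SPI-24 and 40.0 ± 19.6 in DMSO (log2 fold change -1.61). Among 3 further IkB family genes tested, 2 lay above 0 and 1 below. Bcl3, a nuclear IkB protein that binds DNA-bound subunits, had 36.6, 136, 5.03, 5.68 and 86.9 normalized counts in SPI-24 libraries and 34.5, 0, 0, 0 and 0 in DMSO libraries. It had reads in 5 of 5 SPI-24 libraries and in 1 of 5 DMSO libraries, with DMSO replicate 1 within the SPI-24 range. Its log2 fold change of 3.79 (standard error 1.52) had an adjusted p of 0.999 in limma. Antisense genes Gm16174 and Gm16175 overlap Bcl3. Nfkbie averaged 49.99 ± 40.7 normalized counts in SPI-24 and 51.0 ± 14.9 in DMSO, and Nfkbib 527 ± 79.3 in SPI-24 and 537 ± 145 in DMSO.

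All 5 genes of the IkB kinase group were tested, 3 above 0 and 2 below. Tbk1, an IkB kinase relative of interferon signalling, averaged 759.8 ± 55.4 normalized counts in SPI-24 and 673 ± 399 in DMSO, where replicate 3 alone had 1381. Chuk, the kinase subunit of the alternative pathway, averaged 408 ± 171 in SPI-24 and 474 ± 152 in DMSO, and Ikbke 39.4 ± 63.6 in SPI-24 and 8.20 ± 11.1 in DMSO. Of 20 adaptor and kinase genes 10 lay above and 10 below 0. Traf5, an adaptor of TNF receptor family members, had reads in 1 of 5 SPI-24 libraries, at 85.9 normalized counts, and had 32.1, 8.54, 61.5, 31.2 and 29.4 in the DMSO libraries (log2 fold change -3.55, standard error 1.51, adjusted p of 0.999 in limma). The SPI-24 library with Traf5 reads was above all 5 DMSO libraries. Traf1, an adaptor gene that NF-kB induces, averaged 7.92 ± 17.0 in SPI-24 and 37.8 ± 22.6 in DMSO (log2 fold change -3.11). Traf6, the adaptor of interleukin and Toll-like receptors, averaged 329 ± 87.5 in SPI-24 and 488 ± 126 in DMSO (log2 fold change -0.57).

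The 10 ubiquitin and deubiquitin genes tested lay closest to 0, with log2 fold changes of -0.21 to 0.14. Tax1bp1, an adaptor of the Tnfaip3 enzyme, averaged 3689 ± 908 normalized counts in SPI-24 and 4230 ± 828 in DMSO, Otud7b 2641 ± 733 in SPI-24 and 2396 ± 722 in DMSO, and Rnf31 208 ± 89.5 in SPI-24 and 215 ± 72.4 in DMSO. Of 12 ligand and receptor genes 7 lay above 0 and 5 below. Il1b, the interleukin 1 beta gene, had 32.04, 91.3, 0, 6.39 and 0 normalized counts in SPI-24 libraries and no reads in the 5 DMSO libraries. Set against 3 reads in each DMSO library, the observed SPI-24 mean of Il1b was 7.08-fold higher, but 2.62-fold without SPI-24 replicate 2. These ratios allow for counting error in DMSO alone and not for the spread between SPI-24 libraries. The 95% interval of the Il1b log2 fold change in limma was -0.18 to 5.96 and so held 0. Its adjusted p in limma was 0.999. Ltb, the lymphotoxin beta gene, averaged 39.0 ± 42.7 in SPI-24 and 4.36 ± 6.17 in DMSO (log2 fold change 2.80, 95% interval -0.50 to 6.11). Tnfrsf11a, a receptor of the TNF family, averaged 70.0 ± 39.7 in SPI-24 and 32.2 ± 38.4 in DMSO. Of 14 other targets 6 lay above 0 and 8 below, among them Vcam1 with 672 ± 143 in SPI-24 and 837 ± 231 in DMSO, Il15 with 36.7 ± 40.4 in SPI-24 and 62.5 ± 38.8 in DMSO, and Ptgs2 with 20.9 ± 46.7 in SPI-24 and 45.5 ± 55.8 in DMSO.

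Whether the members varied together over the 10 libraries was examined by correlation of log2(normalized count + 1). Of 45 pairs 31 had a positive and 14 a negative Pearson's r, with a median of 0.29. None passed Benjamini-Hochberg adjustment over the 45 pairs by Pearson's r or Spearman's rho, and 9 had an unadjusted permutation p under 0.05 for r. Rela and Irf1 had the highest value (r = 0.94, permutation p = 0.0373, adjusted 0.227, rho = 0.31, permutation p = 0.389, adjusted 0.667). Its r was 0.23 without DMSO replicate 3 and SPI-24 replicate 2, so that this relation rested on libraries without reads of these genes or with few. Nfkb2 and Rela behaved likewise (r = 0.77, permutation p = 0.0101, adjusted 0.227, rho = 0.52, permutation p = 0.124, adjusted 0.466), with an r of 0.06 without the same 2 libraries.

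Nfkbiz had a negative r to every other member except Nfkb2. Nfkb1 and Nfkbiz had the lowest Pearson's r (r = -0.76, permutation p = 0.00827, adjusted 0.227, rho = -0.83, permutation p = 0.00474, adjusted 0.107), and r was -0.53 without DMSO replicate 3 and SPI-24 replicate 2. Nfkbia and Nfkbiz had r = -0.62 (permutation p = 0.0445, adjusted 0.227) and rho = -0.72 (permutation p = 0.0236, adjusted 0.213), with r = -0.63 without DMSO replicate 3 and SPI-24 replicate 4. With group means removed, r of Nfkb1 and Nfkbiz was -0.77. The lowest rho was that of Nfkb2 and Relb (rho = -0.86, permutation p = 0.00239, adjusted 0.107). Their r was -0.37 (permutation p = 0.296, adjusted 0.570), and -0.79 without DMSO replicate 3 and SPI-24 replicate 2.

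**Figure D4:**
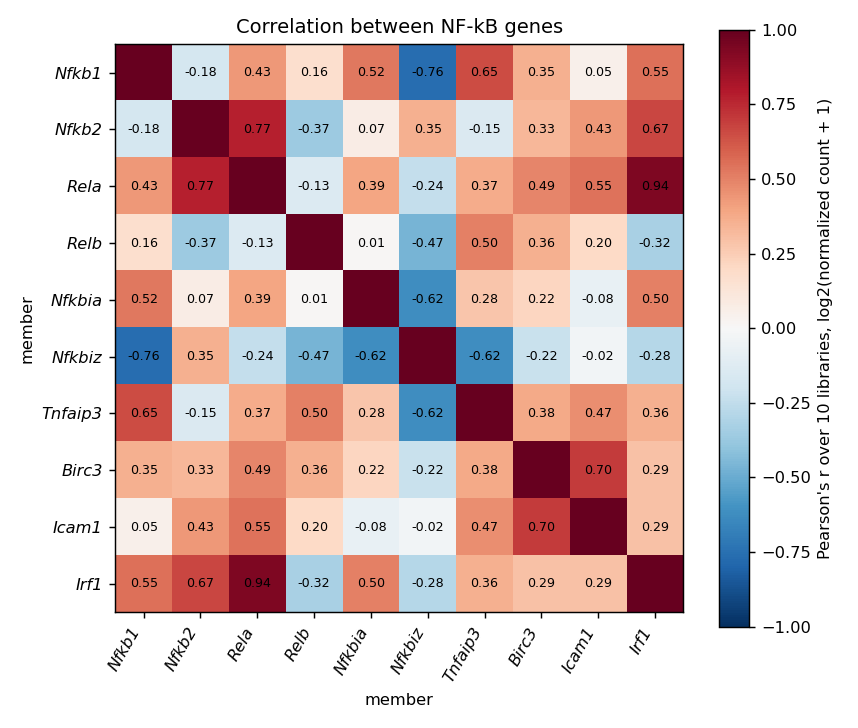
Pearson's r between each pair of the 10 NF-kB genes over 10 libraries on log2(normalized count + 1), from blue (-1) to red (1). The value is highest for Rela with Irf1, at 0.94, and lowest for Nfkb1 with Nfkbiz, at -0.76, and no pair passed adjustment over the 45 pairs.

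Outside the members, the genes most like their mean standardized level over the 10 libraries, among 15861 searched, were Frmd6 (Pearson's r 0.95), Sema4b (0.94), Cdh20 (0.94), Xrcc2 (0.94) and Nfkbil1 (0.93). These values are a description of 10 libraries that share their differences in depth. DMSO replicate 3 had the lowest mean standardized member level, at -1.19, against -0.25 to 0.54 in the other 9 libraries.

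Since microglia and endothelial cells express these genes, each member was also set against the mean log2 level of markers of both cell types. All 12 microglial markers had reads in every library, and their sum ran from 10999 to 14973 normalized counts in SPI-24 and from 12339 to 17100 in DMSO, with 4 markers above 0 and 8 below in log2 fold change. The 10 endothelial markers summed to 2318 to 3819 in SPI-24 and to 1948 to 3288 in DMSO, with 7 above 0 and 3 below. By both the sum and the mean log2 level, SPI-24 replicates 1 to 4 lay above every DMSO library. Their mean log2 level was 7.94 to 8.18, against at most 7.72 in DMSO, while SPI-24 replicate 5 was at 6.54. The endothelial level was thus nearly aligned with group. Of the 7 leukocyte markers in the table, which summed to 0 to 147 in SPI-24 and to 0 to 348 in DMSO, Cd3e, Cd79a and Ccr2 were at 0 in 8 of 10 libraries, Cd3g in 9, Itgal in 6, S100a8 in 5 and S100a9 in 2. Of 20 relations 17 were positive and none passed adjustment. Icam1 and the endothelial markers had r = 0.64 (permutation p = 0.0402, adjusted 0.260) and rho = 0.70 (permutation p = 0.0291, adjusted 0.524), with r = 0.47 without SPI-24 replicates 4 and 5, the highest and the lowest library in the mean log2 level. By the summed level DMSO replicate 1 was the lowest and DMSO replicate 3 the highest of its group, so the order of libraries depended on the measure. With the endothelial level as a covariate in limma, the log2 fold change of Icam1 was -0.75 (95% interval -4.19 to 2.68) instead of 0.28 (95% interval -3.46 to 4.02). Each estimate lay within the interval of the other. Rela and the microglial markers had r = 0.68 (permutation p = 0.0314, adjusted 0.260) and rho = 0.59 (permutation p = 0.0808, adjusted 0.524), which was -0.01 for r without DMSO replicates 2 and 3. With the microglial level as a covariate in limma, the log2 fold change of Rela was 2.35 (95% interval 0.30 to 4.40, adjusted p of 0.503). That of Irf1 was 2.27 (95% interval 0.13 to 4.40, adjusted p of 0.533), and neither passed. In this limma fit 1406 of 15871 genes (8.86%) had an unadjusted p under 0.05. DMSO replicate 3, without reads of Rela and Irf1, had the lowest mean log2 microglial level, at 9.36. By the summed microglial level SPI-24 replicate 3 was the lowest. The part of these cell types in the values of the members was not tested further.

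**Figure D5:**
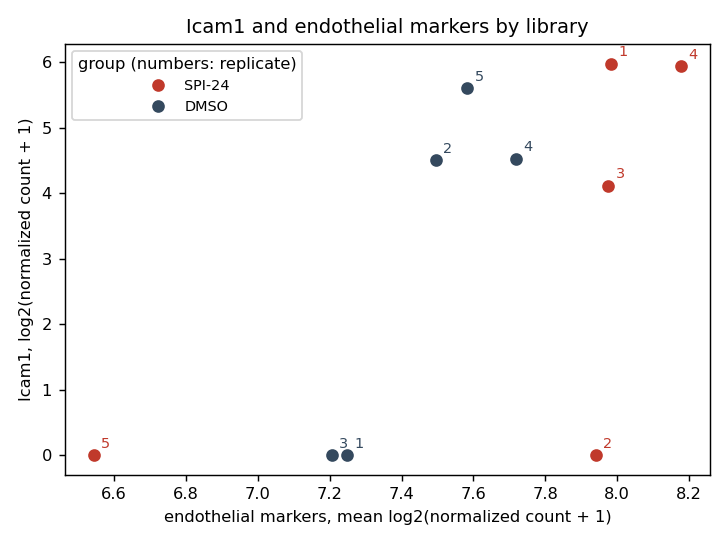
Level of Icam1 (vertical axis) against the mean level of 10 endothelial markers (horizontal axis), both as log2(normalized count + 1), 1 point per library, SPI-24 in red and DMSO in dark blue with replicate numbers. Of the 4 libraries without Icam1 reads, SPI-24 replicate 5 and DMSO replicates 1 and 3 are the lowest on this mean log2 scale, on which a marker without reads counts as 0, and SPI-24 replicate 2 lies among the higher ones.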

How the data were processed

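Stranded libraries of polyadenylated RNA were sequenced by the authors as single reads of 50 bp, trimmed with cutadapt, aligned with STAR to GRCm38 with Ensembl annotation and counted with HTSeq, after reads under 30 bp and multi-mapped reads were discarded, which lowers genes with near-identical copies. No source used here gives versions or the strand setting. The deposited signal is the count per gene divided by a DESeq2 size factor of the library. The authors' own log2 fold changes, p-values and mean columns and a deposited sheet of thresholds were not used. Reads were recovered by dividing by the value of 1 read, and 100.0% of 154521 values above 0 came out whole within 0.1 of a read.

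Both groups were compared in R 4.3.3 by limma 3.58.1, fitted with a trend to log2(normalized count + 1) without covariates, for 15871 genes with a mean of at least 10. A library without reads can enlarge a fold change on this scale, and the added 1 damps that of low genes. Alternatives were edgeR 4.0.16 with TMM and DESeq2 1.42.0 on recovered reads, limma without trend, a pseudocount of 0.5, no filter or at least 10 in every library, a replicate block, leaving out single libraries, sex read from Ddx3y, endothelial, microglial or medium spiny neuron levels as covariates, and the 7 libraries above 11 M reads. Correlation tests used 100000 permutations and were two-sided. Fits were checked on simulated counts. The values named are those of the 10 members, of up to 3 genes of smallest p per pathway list and of the 5 genes most like the members. The members and lists were chosen with earlier results of these data known. Coordinates are those of GENCODE M21, which held 99.8% of the gene identifiers. Promoter sequences are from RefSeq, GRCm38.p6.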

Additional observations from a re-analysis of the deposited data

Results flagged for a closer look

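None of the 20 sets of 5 libraries formed by the 10 members held a library that stood apart from the others by Dixon's test at 95%. Of all 58 sets, members and named pathway genes together, the Il1b set of DMSO was 0 throughout and could not be tested. Among the others 9 held such a library, where chance gives about 1 in 20 for normally distributed values. That rate is no close guide here, because counts were tested without a log, many were 0, and pathway genes were named for small p. All 9 flagged libraries were the highest of their set. In SPI-24 these were Rel in replicate 5 with 86.92 normalized counts (0 to 18.96 in the others), Tbk1 in replicate 2 with 857.69 (727.14 to 749.30), Traf5 in replicate 4 with 85.91 (0 in the others), Traf1 in replicate 4 with 38.34 (0 to 0.65) and Ptgs2 in replicate 4 with 104.37 (0 in the others). In DMSO these were Bcl3 in replicate 1 with 34.49 (0 in the others), Tbk1 in replicate 3 with 1380.84 (458.47 to 578.72), Otud7b in replicate 4 with 3658.32 (1924.04 to 2329.16) and Tnfrsf11a in replicate 1 with 98.7 (0 to 24.96). The single SPI-24 library with reads of Traf5 and of Ptgs2 and the highest of Traf1 was the same one, replicate 4.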

How the results depend on the processing

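No member and no named pathway gene was called under any alternative, and the count of called genes was 0 in each except DESeq2, with 3. Of the members, with each library left out, log2 fold changes ran from -0.20 to 0.28 for Nfkb1, -0.82 to 1.69 for Nfkb2, -0.66 to 1.56 for Rela, -0.51 to 0.034 for Relb, -0.90 to 1.54 for Nfkbiz, -0.45 to 1.08 for Icam1 and -0.25 to 1.68 for Irf1, each changing sign. The same held for Nfkbie (-1.50 to 0.20), Nfkbib (-0.16 to 0.13), Ikbke (-0.15 to 1.65) and Rnf31 (-0.35 to 0.24). Nfkbia, Birc3 and Tnfaip3 kept their sign. Without DMSO replicate 4 the Birc3 mean was under 10, and under the filter of 10 in every library only Nfkb1, Relb and Nfkbia of the members remained, so these give no further values.

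In the 7 libraries above 11 M reads the sign changed for Nfkb1 (-0.39), Nfkb2 (-0.15), Rela (-0.37), Irf1 (-0.60), Nfkbie (0.012), Nfkbib (-0.044), Ikbke (-0.042), Tax1bp1 (0.018), Otud7b (-0.035) and Rnf31 (0.37). It changed for Rela (-0.32) and Nfkbib (-0.035) with edgeR and for Rela (-0.30) and Nfkbib (-0.032) with DESeq2, for Nfkb1 (-0.051), Icam1 (-0.75) and Nfkbib (-0.068) with the endothelial covariate, and for Nfkbiz (-0.38) and Nfkbib (-0.042) with the microglial one. The cause was not tested. The other settings changed no sign. With sex read from Ddx3y as a covariate, log2 fold changes moved from 0.98 to 1.46 for Tnfaip3 and from 0.28 to 0.69 for Icam1. That of Relb moved from -0.33 to -0.13. Such shifts arise only where the sex make-up of the groups differs.

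Genes at an unadjusted p under 0.05 numbered 354 in the main comparison, 797 with the endothelial and 1406 with the microglial covariate, 930 in the 7 deeper libraries and 556 without DMSO replicate 3. The replicate numbers did not pair the libraries (correlations of same-numbered deviations -0.13 to -0.01), and with the replicate number as a block 0 genes were called and 316 listed.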
